A study of Mus musculus with 9 samples.

Results

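The set described here holds the Sox2 binding regions inside genes that were listed after deletion of Nkx2-1 and in neither of the other conditions. They are the summits of the Sox2 chromatin immunoprecipitation (ChIP) peak list of cells with ectopic Sox2 and Nkx2-1 deletion that met 2 conditions. The region overlapped no region of the list for ectopic Sox2 or of the list for wildtype cells by 1 bp, and the summit, its point of highest signal, lay inside the span of a protein-coding gene. The set has 1093 summits in 1080 regions, which is 42.2% of the 2589 summits of that list and part of 3370 summits in all 3 lists. They lay in 882 genes, or 4.03% of the 21887 protein-coding genes in the RefSeq table of build GRCm38.p6. The members were chosen by the authors' peak calls themselves (no overlap between the lists) and by gene position, so their presence in 1 list is a description and was not tested. Of them, 9 lay inside several genes at once.

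The study asked where Sox2 binds in mouse lung epithelial cells that have or lack Nkx2-1. The groups were ectopic Sox2 with Nkx2-1 deletion, ectopic Sox2 alone, and wildtype, each labelled as C57BL/6 at 8 weeks of age. Each group had 1 Sox2 ChIP library, made with a goat antibody after crosslinking with formaldehyde and the longer-armed crosslinker EGS. The 9 libraries of the series also hold input DNA and normal goat IgG libraries, which were not analysed here. Both groups with ectopic Sox2 carry that Sox2, so the deletion of Nkx2-1 is the labelled difference between them. The sources used here do not give the promoter driving Sox2, the means of deletion, or whether animals were pooled. A peak list holds no expression values, so the cell type, the extra Sox2 and the loss of Nkx2-1 are taken from the labels and could not be checked against marker genes. With 1 library per group, no difference between conditions could be tested, and every interval below covers counting error only.

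Sox2 is a transcription factor that binds the minor groove of DNA through its HMG box. In the foregut it marks the oesophagus, the trachea and the proximal airways, and it is expressed in basal and squamous epithelium. Nkx2-1 is the homeobox factor that sets lung identity and maintains the surfactant programme of alveolar cells. Sites inside genes can act as enhancers of the gene that holds them or of another gene nearby, so the gene holding a summit is a place on the map and not a known target.

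Only 21 of the 1093 summits had a region reaching a RefSeq promoter window, which runs from 250 bases before to 50 bases after a transcription start. These are shown because they are the members for which sequence of the same build was at hand. Their regions touched the windows of 22 genes, 16 of them protein-coding, and 16 had the summit itself within a window. The sequences below are the stretches shared by the member and the promoter window, written 5′ to 3′ on the gene's strand from RefSeq GRCm38.p6. Capitals mark the Sox core motif, ATTGT or its reverse complement ACAAT. The predicted gene Gm13415 starts inside Pax8, a paired box factor (plus strand, chr2:24440218-24440442), and its stretch held 3 cores, a pair of them overlapping as a palindrome. Harbi1, a transposase-derived gene (plus strand, chr2:91711830-91712006), held 3 cores. Lyrm1 (plus strand, chr7:119899861-119900037) held 2 cores. The predicted gene Gm10791 starts inside App, the amyloid precursor gene (plus strand, chr16:84972027-84972260), and held 2 cores. Ablim1, which encodes an actin-binding LIM protein (minus strand, chr19:57118975-57119182), is shown as a member without a core.
Gm13415: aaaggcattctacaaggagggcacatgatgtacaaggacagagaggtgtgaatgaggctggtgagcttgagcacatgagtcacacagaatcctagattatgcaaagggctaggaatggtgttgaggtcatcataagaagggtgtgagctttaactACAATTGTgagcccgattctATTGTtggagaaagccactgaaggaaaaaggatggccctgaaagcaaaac
Harbi1: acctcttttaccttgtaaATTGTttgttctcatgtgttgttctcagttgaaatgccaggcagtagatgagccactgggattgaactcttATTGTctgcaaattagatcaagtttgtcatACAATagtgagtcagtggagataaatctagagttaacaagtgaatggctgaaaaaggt
Lyrm1: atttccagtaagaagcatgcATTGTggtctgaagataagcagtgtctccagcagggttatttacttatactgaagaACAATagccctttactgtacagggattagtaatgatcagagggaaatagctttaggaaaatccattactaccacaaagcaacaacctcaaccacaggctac
Gm10791: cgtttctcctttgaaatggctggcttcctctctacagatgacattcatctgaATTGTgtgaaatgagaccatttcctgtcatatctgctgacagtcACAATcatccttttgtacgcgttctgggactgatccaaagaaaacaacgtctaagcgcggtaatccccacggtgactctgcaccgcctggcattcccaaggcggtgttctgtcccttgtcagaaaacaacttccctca
Ablim1: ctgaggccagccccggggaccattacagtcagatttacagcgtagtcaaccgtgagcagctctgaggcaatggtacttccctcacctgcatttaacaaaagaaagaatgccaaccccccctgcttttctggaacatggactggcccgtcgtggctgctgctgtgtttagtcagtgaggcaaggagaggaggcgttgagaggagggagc

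The 5 printed members differed in signal. The summit in Gm13415 had 55 ChIP fragments and a 7.14-fold enrichment, Ablim1 51 fragments and 5.94-fold, Lyrm1 72 fragments and 4.50-fold, Harbi1 59 fragments and 4.33-fold, and Gm10791 28 fragments and 7.65-fold. The Ablim1 summit without a core was therefore within the range of those with cores. The printed members are not a sample of the 22 windows and favour those with cores. The promoter member with the largest −log10 q, 17.5, was at Zfp553, with 68 fragments and 9.93-fold. Its stretch held no core but 1 match of the longer form CTTTGTT, and its summit lay outside the window. Emsy, with 42 fragments and 7.22-fold, had no core either. Across the whole 300-base windows of the 22 genes, the Sox core was present in 8 (36.4%), against 31.0% of all 32851 promoter windows. The longer form CTTTGTT, searched like every motif on both strands, was in 3 of 22 (13.6%) against 5.85% of all windows, and CATTGTT was in 0 of 22 against 3.78%. The AP-1 motif TGANTCA was in 4 (18.2% against 7.81%), the Tead motif GGAATG in 6 (27.3% against 14.7%), and the Nkx2-1 motif CTCAAG in 4 (18.2% against 15.9%). The Klf motif GGGNGGGG was in 4 (18.2% against 33.2%), the Runx motif TGTGGT in 3 (13.6% against 16.8%) and the Gata motif AGATAA in 3 (13.6% against 11.2%). The forkhead motif TGTTTAC (3.65% of all windows), the Grhl motif AACCNGTT (2.09%) and the Ets motif CCGGAAG (8.86%) were each in 2 (9.09%). The p53 family motif was in 1 (4.55% against 16.1%). The octamer ATGCAAAT (1.74% of all windows), the Ctcf motif (2.22%), the Cebp motif TTGCNNCAA (2.08%) and the Nfi motif (0.0365%) were in 0 of 22. Of these motifs, CATTGTT contains the Sox core. With 22 windows a count of this size is a description, and a motif match is not a bound site.

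Members spanned a wide range of signal. The fold, given by the authors as ChIP over local control background, was at least 2.48, had a median of 5.84 and reached 15.5. The −log10 q, the peak caller's adjusted p on a log scale, was at least 1.38, had a median of 5.62 and reached 29.0. ChIP fragments at the summit, recovered from these values, were at least 15, had a median of 36 and reached 116. A band of 716 members held 25 to 49 fragments, 150 held fewer and 225 held 50 or more. Pink1 and Myo1e each have a member with no unique fragment value, and these 2 are left out of fragment counts. A fold of 10 or more was found at 43 members and a fold under 4 at 119. At 62 members the −log10 q was under 2.

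Members were set beside the 146 summits of the same list that lay inside genes and overlapped a region of another list. Sharing required a call in another list, each of which held fewer summits. Stronger summits may thus fall into the shared group by the rule itself, so the contrasts below are a description. Of all 1239 in-gene summits of the list, 88.2% had no such overlap, close to the 87.3% over the whole list. The median fold was alike, 5.84 at members and 5.89 at shared in-gene summits. Fragments were not: the median was 36 at members and 56 at shared summits, and 50 or more fragments were held by 20.6% of members (18.2 to 23.1%) and by 58.9% of shared summits (50.5 to 67.0%, exact 95% binomial). A −log10 q of 5 or more was reached by 60.2% of members (57.2 to 63.1%) and 82.9% of shared summits (75.8 to 88.6%). The local control background moved with this. Its median was 1.80 fragments at members and 3.00 at shared summits, where the genome mean was 0.615, and its part in the difference was not tested. Among unshared summits the medians lay close together: the fold was 5.84 inside genes, 5.55 outside genes within 50 kb, and 5.70 farther away.

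**Figure D1:**
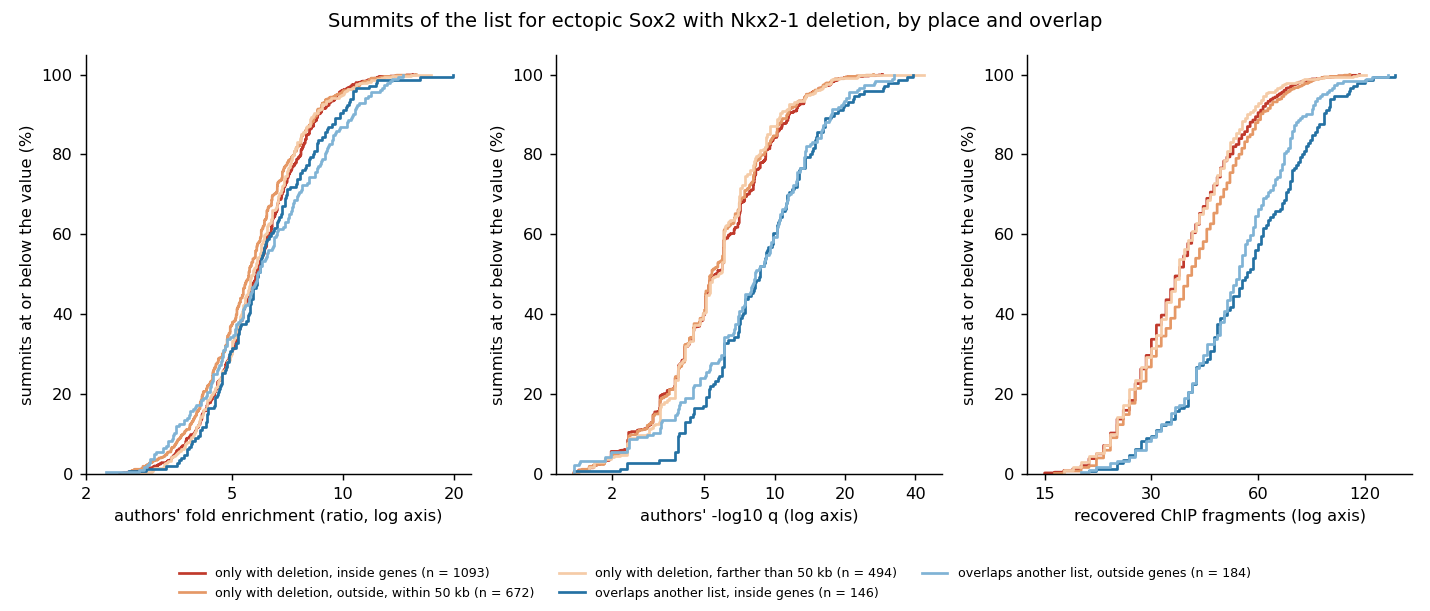
Cumulative share of summits (%) at or below a given fold, −log10 q and number of ChIP fragments, each on a log axis, for 5 classes of summits listed after Nkx2-1 deletion; n is the number of summits with a fold. The 3 unshared classes lie together, and the shared classes lie to their right in fragments (median 36 at members, 56 at shared in-gene summits), while the median folds are close (5.84 at members, 5.89 at shared in-gene summits).

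Depth differed between the libraries. The mean ChIP coverage recovered from the lists was 1.45 fragments per position with Nkx2-1 deletion, 0.764 with ectopic Sox2 alone and 0.963 in wildtype. The lists held 2589 summits with Nkx2-1 deletion, 229 with ectopic Sox2 alone and 552 in wildtype. A member's fragments were scaled to the coverage of each other library and then by the scale of that library's list (given below). The control background was scaled from the deletion library. In this product the ChIP coverage cancels, so the scaling follows control coverage and does not mimic a shallower ChIP library. The member in Btrc, with a −log10 p of 35.5 in its own list, came to 28.7 at ectopic Sox2 and 41.6 at wildtype. Scaled in this way to the ectopic Sox2 library, 952 of 1091 members (87.3%, 85.1 to 89.2%) would pass the lowest −log10 p of that list, 5.47. Scaled to the wildtype library, 1087 of 1091 (99.6%, 99.1 to 99.9%) would pass that list's lowest value, 5.27. The median −log10 p of members so scaled was 11.1. Neither share tells how members would fare at a lower ChIP depth. The median −log10 p of the ectopic Sox2 list, 11.2, would be passed by 21.2% of members. The scaling does not cover differences in ChIP coverage or between immunoprecipitations, whose part was not tested.

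The strongest member by −log10 q lay in Btrc, whose product is the substrate-recognition subunit of a ubiquitin ligase acting on beta-catenin, at chr19:45483622-45484020. It had 82 fragments (exact 95% Poisson interval 65.2 to 102), a 14.9-fold enrichment and a −log10 q of 29.0. A summit in Tulp4, a tubby-like protein gene (chr17:6180309-6180734), had 71 fragments and a fold of 15.5, the highest of the set. Cdc14b, a cell-cycle phosphatase gene (chr13:64244935-64245299), had 75 fragments and 14.9-fold, with its summit 3.43 kb from a start of the gene. Bcl2l14 of the Bcl2 family (chr6:134403746-134404044) had 83 fragments and 12.0-fold. These 4 summits had neither other list's region within 100 kb.

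The next members were in genes of varied roles. Slc25a21, a mitochondrial carrier (chr12:56779789-56780276), had 65 fragments and 14.3-fold. Itgb8, the integrin beta-8 chain that binds latent Tgf-beta (chr12:119227857-119228200), had 90 fragments and 9.78-fold, and a further member in the gene had 48 fragments and 3.55-fold. Crybg1 had 63 fragments and 12.6-fold. Wnt7a, a secreted Wnt ligand (chr6:91379836-91380156), had 64 fragments and 11.7-fold. Syt1, a synaptic vesicle calcium sensor, had 85 fragments and 9.25-fold, and Sdhaf3, an assembly factor of succinate dehydrogenase, had 57 fragments and 12.6-fold. The last of the 12 were Hdac4, a class IIa histone deacetylase, with 101 fragments and 7.29-fold, and Prkd1, a protein kinase, with 91 fragments and 7.90-fold. Hdac4 and Prkd1 had many fragments but a fold near the upper quartile of 7.14, beside a control background 8.13 and 6.51 times the genome mean. Ranking by fold instead added Txndc16 at 13.5-fold and Slc2a12 (a glucose transporter), Robo2 (a Slit receptor) and Asap2 (an Arf GTPase-activating protein) at 12.4-fold each.

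Host genes were long. The median span of the 882 genes was 109 kb, against 17.2 kb over all protein-coding genes. The share of genes with a member was 0.24% of genes under 10 kb, 1.52% at 10 to 30 kb, 5.81% at 30 to 100 kb, 16.9% at 100 to 300 kb and 27.5% above 300 kb. Per Mb of gene span the range was far smaller. There were 0.583 members per Mb in genes under 10 kb, 0.878 at 10 to 30 kb, 1.21 at 30 to 100 kb, 1.36 at 100 to 300 kb and 0.724 above 300 kb, where the whole gene-covered genome had 1.06. Counts of genes in the lists below are therefore given with the members per Mb of gene span, to be read against 4.03% of genes and 1.06 members per Mb over all protein-coding genes.

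**Figure D2:**
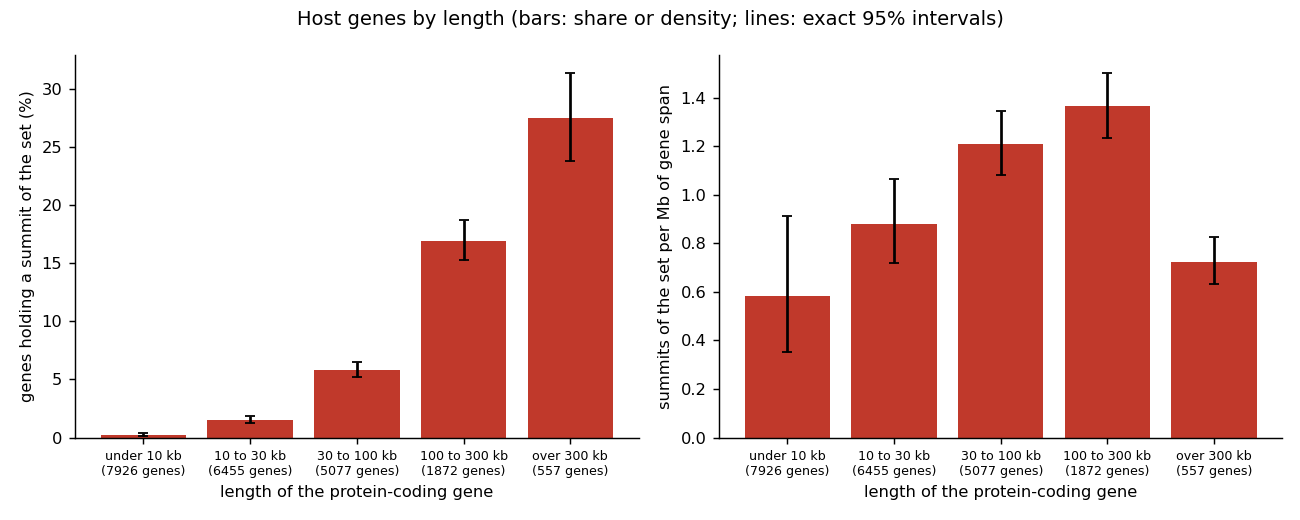
Left, share of protein-coding genes (%) that hold a member, and right, members per Mb of gene span, in 5 classes of gene length; bars start at 0 and lines are exact 95% intervals. The share climbs from 0.24% under 10 kb to 27.5% above 300 kb, whereas the density peaks at 1.36 per Mb in genes of 100 to 300 kb.

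Most members lay far from a start. For the 880 members whose host had a start in the promoter table, the median distance to the nearest start of that gene was 34.9 kb, with quartiles of 10.8 and 85.9 kb. Only 28 (3.18%, 2.12 to 4.57%) lay within 1 kb of it, 203 (23.1%, 20.3 to 26.0%) within 10 kb and 536 (60.9%) within 50 kb. Shared in-gene summits had a median of 46.4 kb, with 25 of 109 (22.9%, 15.4 to 32.0%) within 10 kb, and this share did not differ beyond its interval. With each gene cut into 5 equal parts, the part nearest the start held 26.1% of members (23.2 to 29.1%). Moving away from the start, the other 4 held 20.9%, 21.0%, 15.2% and 16.8%. Exons and introns were not distinguished, since the annotation used here gave gene spans and starts only.

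Within the hosts, 718 genes held 1 member, 122 held 2 and 42 held 3 or more, the last being 0.192% of all protein-coding genes. The 164 genes with several members had a median span of 193 kb, and those with 1 had 95.2 kb. Neighbouring members in the same gene were a median of 32.0 kb apart, and 15 of 206 such pairs lay within 2 kb. The closest were 0.29 kb apart in Mrps27, a mitochondrial ribosomal protein gene, with 35 and 31 fragments. Genes with 5 members were Myof, Gnaq and Sox6. Genes with 4 were Slc25a21, Nrxn3, Ahnak, Mllt3, Macrod2, Maml2, Ctnna2 and Trp63. Nrxn3, Macrod2 and Ctnna2 are far longer, and hold 0.248, 0.200 and 0.364 members per 100 kb, while Ahnak has 4.56 and Myof 3.46.

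Myof, which encodes myoferlin, a membrane repair protein, had members of 78, 47, 78, 58 and 39 fragments along a 145 kb span, and no summit of any other kind. Ahnak, a large scaffold protein gene and a marker of alveolar type 1 cells, had 54, 64, 60 and 91 fragments in 87.7 kb, the last at 5.65-fold. Gnaq, a G protein subunit gene, had 33, 36, 33, 49 and 26, with 3 of the summits lying close together, 35.7, 36.2 and 38.2 kb from the start. These 3 genes are on chromosome 19, whose background is described below.

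Sox6, a SoxD transcription factor gene, combined both classes. Its members had 29, 31, 23, 24 and 50 fragments, while 4 shared summits of the same list in the gene had 62, 88, 111 and 95. In the other lists, Sox6 held 2 summits of 30 and 38 fragments with ectopic Sox2 alone and 3 of 38, 25 and 28 in wildtype. Their folds were 5.04 and 4.21 with ectopic Sox2 alone, and 4.86, 6.51 and 5.44 in wildtype. Fragments here and below are not scaled for depth, which differed between the libraries, so they do not compare across lists. All 5 members had fewer fragments than every shared summit of the gene. Folds overlapped: the members had 6.64, 7.06, 5.37, 5.58 and 3.17, and the shared summits 6.81, 4.25, 6.86 and 5.89. Of the 5 members of Sox6, 2 had a −log10 q of at least 5. Trp63, the p53 family factor of basal cells, had members of 21, 27, 25 and 29 fragments, a shared summit of 83, and a wildtype summit of 19. At Trp63 the members were below the shared summit in fold too, with 4.95, 6.22, 6.58 and 7.38 against 9.03. Slc25a21 had members of 65, 53, 37 and 34 fragments and a shared summit of 45, with 26 in wildtype, so 2 members exceeded the shared summit. Ctnna2, an alpha-catenin gene, had members of 26, 28, 15 and 23 fragments and shared summits of 40 and 24.

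Maml2, a coactivator of Notch, held members of 65, 47, 27 and 25 fragments, the last 2 in the same region. Mllt3, a gene of a transcription elongation complex, held 39, 38, 29 and 38, the first at 10.8-fold. Among genes with 3 members, Antxr1, an anthrax toxin receptor gene, had 96, 28 and 70 fragments. Cftr, the chloride channel of airway epithelium, had 66, 42 and 39, beside a shared summit of 72 that overlapped a wildtype region. Met, the receptor for hepatocyte growth factor, had 31, 37 and 38. Epha4, an ephrin receptor gene, had 51, 46 and 52 fragments at folds of 3.23, 6.82 and 4.60. The others with 3 were Robo2, Auts2, Ppp3ca, Vcl, Kcnab1, Ano4, Pard3, Exoc6b, Tnrc6a, Tenm4, Trpm1, Wdfy3, Slc25a13, Rad51b, Arhgap35, Frk, Cacna2d1, Susd6, Klf12, Hecw2, Gask1b, Arntl, Palld, Sorbs2, Ctnna3, Slc17a8 and Sgms1. Their members ranged from 16 fragments, in Sgms1, to 72, in Ano4.

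**Figure D3:**
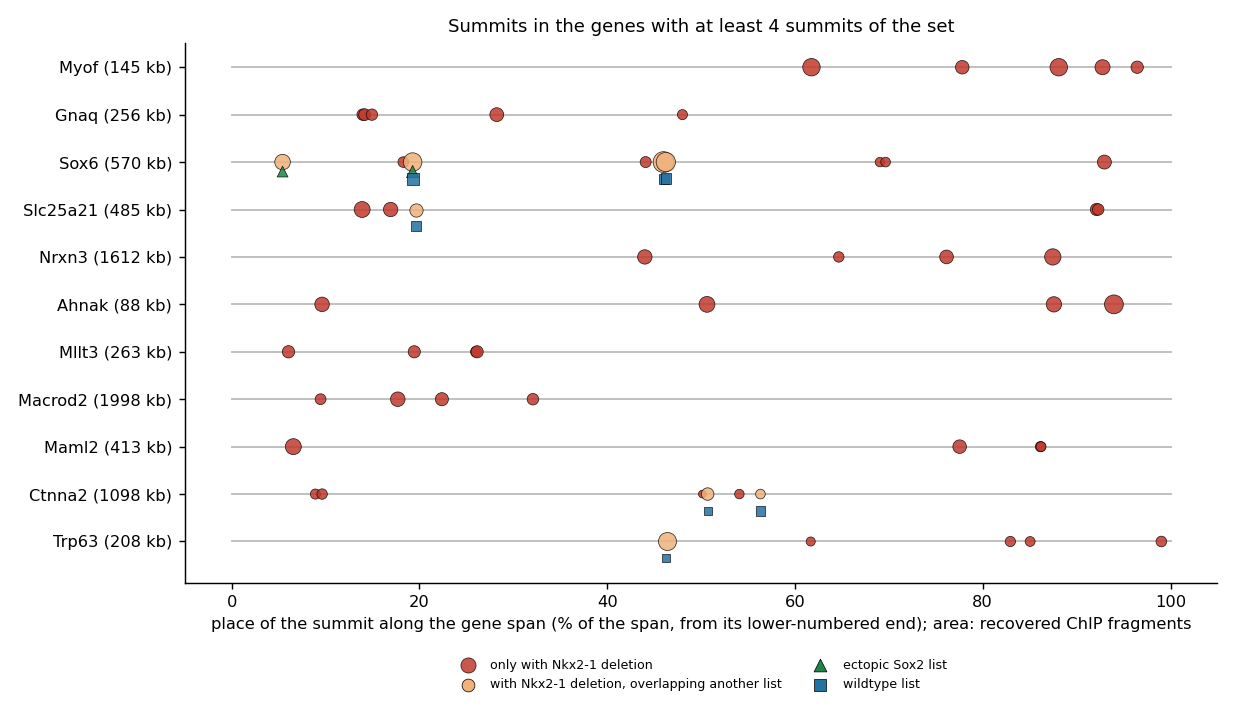
Place of each summit along the gene (% of the span from its lower-numbered end) in the 11 genes with at least 4 members, with symbol area showing recovered ChIP fragments and symbol type showing the member, shared, ectopic Sox2 and wildtype summits. In 7 of these genes, among them Myof, Gnaq and Ahnak, all summits are members, while in Sox6 the shared summits of 62 to 111 fragments stand among members of 23 to 50 fragments. Fragments are not scaled for the depth of the libraries.

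Members were then placed in 25 lists of genes by role. Together, 65 of 540 listed genes (12.0%) held a member, against 4.03% of all protein-coding genes, and the listed genes were longer, with a median span of 30.8 kb against 17.2 kb. The lists were chosen with results of these data known, and no set test was made. In desmosomes and cell junctions, 6 of 24 genes held 10 members, or 5.27 per Mb. Dsc3, a desmosomal cadherin of basal cells, had members of 31 and 43 fragments, the stronger at 9.60-fold. Pard3, a cell polarity scaffold, had 60, 56 and 61. The others were Ctnnd1, which encodes p120-catenin, with 56 fragments, Tjp1, which encodes ZO-1, with 24 and 27, Dsc2 with 23, and Cdh1, which encodes E-cadherin, with 45. Pard3, Tjp1 and Cdh1 each also held a wildtype summit. In Cdh1 it lay 1.22 kb from the member, with a −log10 q of 6.16 against 2.84 at the member. With a −log10 q of at least 5, 3 of the 24 held a member.

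In hemidesmosomes, integrins and basement membrane, 3 of 20 genes held a member, at 2.17 members per Mb, and 1 did with a −log10 q of at least 5. The 3 were Itgb8, Lama3 (a laminin-332 chain) with 35 fragments, and Dst (a hemidesmosomal plakin) with 28. Lama3 also held a wildtype summit 1.58 kb from the member, with a −log10 q of 6.09 against 4.49 at the member. Basal and squamous transcription factors had 3 of 21, at 6.13 members per Mb, 4 of the 7 members being in Trp63. With a −log10 q of at least 5, 2 genes held a member. The 3 were Trp63, Klf5, a zinc finger factor of epithelial growth, with 66 fragments and 5.79-fold, and Grhl2, a grainyhead factor of epithelial junctions, with 39 and 32 in the same region. The wider list of basal and squamous epithelium, which shares genes with these lists, had 3 of 25, at 8.12 members per Mb: Dsc3, Trp63 and the receptor gene Fgfr2. Of its 7 members, 4 were the same Trp63 summits, and 2 of its genes held a member with a −log10 q of at least 5. Of the 20 genes of the cornified envelope, Anxa1 alone held a member, with 59 fragments, or 2.62 per Mb.

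Signalling genes were hosts at several steps of their pathways. Over all genes, 4.03% held a member, at 1.06 members per Mb. In the Wnt list, 5 of 38 genes held a member, at 2.03 members per Mb, and 3 did with a −log10 q of at least 5. The 5 were the ligands Wnt7a and Wnt5b, with 64 and 42 fragments, the E3 ligases Btrc and Rnf43 (31), and the nuclear effector Tcf7l2 (38 and 51). In Tgf-beta and Bmp signalling there were 5 of 30, at 2.47 per Mb, and 3 with a −log10 q of at least 5. The receptors Bmpr1b and Bmpr2 had 64 and 35 fragments, the latent-complex protein Ltbp1 had 51 and 28, the receptor-regulated Smad3 had 47 at 9.59-fold, and the ligase Smurf1 had 42. Ltbp1 also held 1 wildtype summit and 1 with ectopic Sox2 alone. In Notch signalling, 3 of 26 genes held a member, at 3.58 per Mb: Lfng, a glycosyltransferase of the receptor, with 67 fragments 3.98 kb from its start, and the coactivators Maml2 and Maml3. In the Hippo list there were 4 of 25, at 2.1 per Mb, and 1 with a −log10 q of at least 5. The 4 were Stk3 (Mst2 kinase) with 33 fragments, the Tead cofactor Vgll4 with 36, Yap1 with 22 at 1.08 kb from its start, and the Yap1-binding phosphatase Ptpn14 with 29. Ptpn14 also held a summit of the ectopic Sox2 list. Fgf signalling had Fgf1 and Fgfr2 of 18, with 35 and 30 fragments, at 2.28 per Mb, and 1 of them had a −log10 q of at least 5. That was Fgf1, whose member also lay inside Arhgap26. Fgf1 also held a summit of the ectopic Sox2 list. The Egf receptor list had 3 of 24, at 0.702 per Mb, below the density over all genes, and 1 with a −log10 q of at least 5. The 3 were the ligand Nrg1 (40), the receptor Erbb3 (38) and the inhibitor Errfi1 (28).

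Among foregut factors, 3 of 28 genes held a member, at 1.51 members per Mb, against 4.03% and 1.06 per Mb over all genes. Foxa1, a pioneer factor of endoderm, had 39 fragments at 7.30-fold, 1.08 kb from its start. Ehf, an epithelial Ets factor, had 26, and Foxp1, a forkhead repressor, had 27. The Sox family had Sox6 and Sox5 of 19, at 4.18 per Mb, the SoxD gene Sox5 with 35 and 43 fragments. Sox5 also held a shared summit of 92 fragments that overlapped a wildtype region. That summit had the highest fold and the largest −log10 q of all shared in-gene summits. In the other lists, Sox5 held 3 wildtype summits and 1 with ectopic Sox2 alone. The Runx, Klf and related factors had 3 of 27, at 2.64 per Mb: Klf12 with 46, 36 and 24 fragments, Runx1 with 56 and 52, and Nfix with 31. Runx1 also held a wildtype summit. The list of Nrf2 and glutathione genes had 4 of 19, at 5.01 per Mb, but 1 with a −log10 q of at least 5. There were 61 fragments in the transporter Abcc4, 52 in the cystine transporter Slc7a11, 36 in Abcc1 and 37 in Adh7. Abcc4 also held 5 wildtype summits, and 1 with ectopic Sox2 alone, each apart from the member. The deletion list itself had shared summits of 127, 82 and 38 fragments in Abcc4, overlapping some of these. Adh7 held 2 wildtype summits, the nearer 0.725 kb from its member. The cell cycle list had Cdc14b and the retinoblastoma gene Rb1 (38 fragments) of 30, at 2.02 per Mb. The member in Rb1 also lay inside Lpar6, with its summit 75 bp from the Lpar6 start. Rb1 also held a shared summit of 109 fragments.

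Lung lineage lists differed in their counts. In alveolar type 1 genes, Ahnak and Rtkn2 of 14 held members, at 9.15 per Mb, 4 of the 5 members being in Ahnak, and 1 gene did with a −log10 q of at least 5. In airway secretory and ciliated genes there were 3 of 20, at 2.76 per Mb: the ciliogenesis factor Rfx3 (46 fragments), Aldh1a1 (51) and the mucin Muc4 (24). No member lay in any of 18 alveolar type 2 genes, which cover 0.479 Mb in all, or in any of 28 gastric and intestinal genes. None lay in 23 genes of the pluripotency and neural Sox2 programme, 14 immune or 15 mesenchymal genes, and Vwf was the single endothelial gene of 12, at 1.04 per Mb and with a −log10 q under 5. A count of 0 in 18 genes leaves an upper 95% limit of 18.5%, and in 28 genes of 12.3%, both above the 4.03% of all genes, so these zeros are not set apart from the background.

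**Figure D4:**
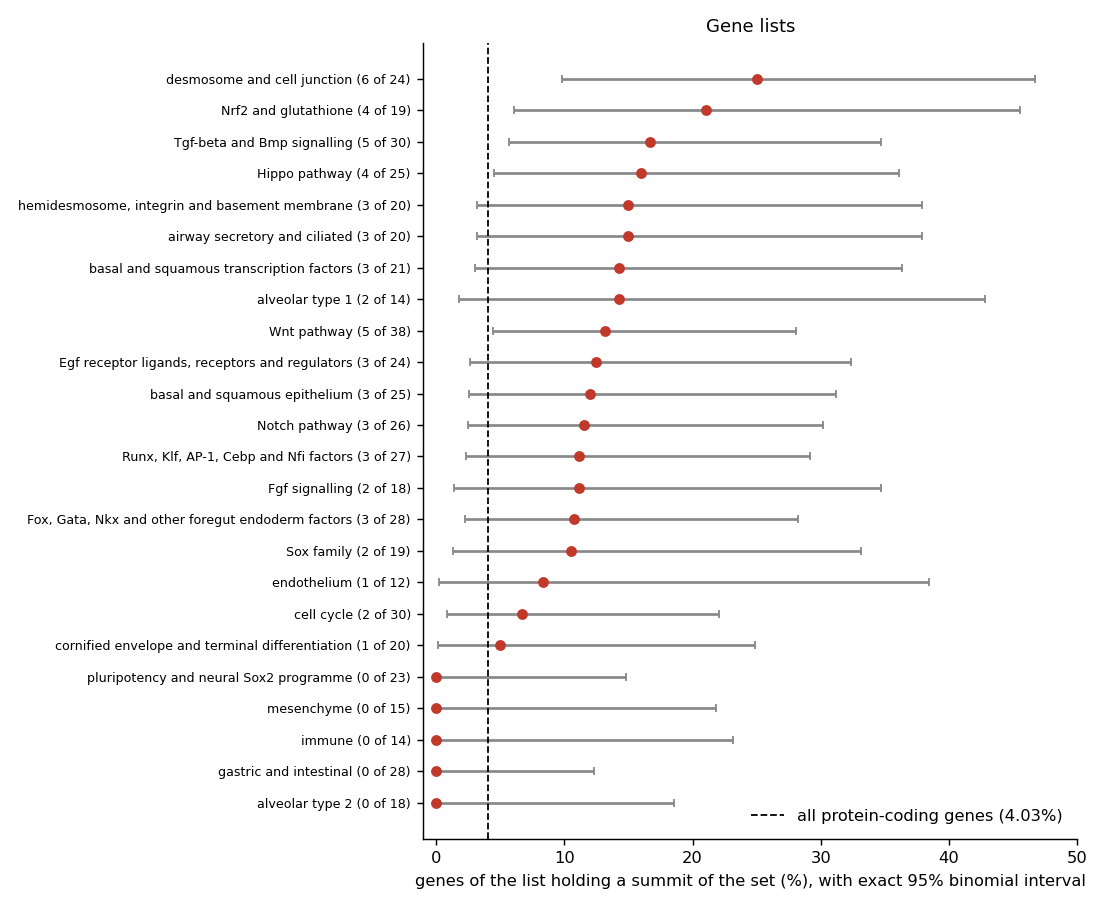
Share of genes (%) in each of 24 lists that hold a member, with exact 95% binomial intervals and the counts beside each list; the dashed line is the 4.03% of all protein-coding genes. Junction genes (6 of 24) and Nrf2 and glutathione genes (4 of 19) have the highest points shown, which become 3 and 1 genes with a −log10 q of at least 5, and the intervals of most lists are wide.

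Around the deleted gene itself, 9 members (0.823% of the set) lay within 1.5 Mb of Nkx2-1 on chromosome 12, a window chosen after the values were seen. They were in Slc25a21 (4, the nearest 243 kb from Nkx2-1), Mipol1 (36 and 39 fragments), Foxa1, Psma6 (a proteasome subunit, 71 fragments) and Fam177a (48). They made 5.75 members per Mb of gene span in the window, where all of chromosome 12 had 1.63 and all chromosomes 1.06. The window held 15 of 2589 summits of the deletion list (0.579%), 1 of 229 of the ectopic Sox2 list (0.437%) and 5 of 552 of the wildtype list (0.906%). Around Sox2 there was no member, with 1 summit in each of the 3 lists.

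Host genes held summits of the other lists more often than genes in general, beside their greater length, whose part was not tested. A summit of the ectopic Sox2 list lay in 32 of 882 hosts (3.63%, against 0.439% of all genes), and a wildtype summit in 69 (7.82%, against 1.01%). Over all genes of 100 to 300 kb these shares were 1.71% and 4.33%, and above 300 kb they were 3.59% and 9.87%. The all-gene shares are thus not a like-for-like baseline for the long hosts. Nevertheless 802 hosts (90.9%) held no summit of either list. Seen from the other side, hosts made up 33.3% of the 96 genes with an ectopic Sox2 summit and 31.1% of the 222 with a wildtype summit. In all, 48 hosts also held a shared summit of the deletion list. The nearest region of another list was a median of 1042 kb away, and 81 members (7.41%) had 1 within 50 kb. The nearest other summit of the same list was a median of 147 kb away.

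At the edge of the overlap rule, the members just inside were Cdk19, 386 bp from a wildtype region with 34 fragments at 7.0-fold, Adh7 at 408 bp (37, 3.33-fold) and Tmprss11e at 759 bp (58, 4.26-fold). Just outside, with a wildtype region overlapping by 67, 115 and 155 bp, were Nedd9 (30, 6.85-fold), Pou2f1 (60, 7.76-fold) and Arhgap10 (77, 5.60-fold). At the gene border, the summits in Kif21a, Pomt1 and Zfp160 lay 0, 12 and 29 bp inside a gene end, with 48, 27 and 29 fragments. Those nearest Cfl1, Gpnmb and Olfr543 lay 1, 2 and 3 bp outside, with 43, 47 and 52.

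Chromosome 19 stood apart. It held 72 members, or 2.58 per Mb of gene span (2.02 to 3.24, exact 95% Poisson), against 1.06 over all chromosomes. The median control background at its members was 3.74 times the genome mean and 2.6 times elsewhere. Their fold was slightly lower (median 5.32 against 5.86 elsewhere) and their fragments slightly higher (40 against 35). The same background was 5.04 times at other summits of that list on chromosome 19. On other chromosomes the background at members was lowest on X and chromosome 13, at 1.63 times, with 0.307 and 0.802 members per Mb. It was 3.25 times on chromosomes 1, 4, 7, 8, 11 and 12, with 0.595 to 1.63 members per Mb. On chromosome 10 the background was 2.93 times. Its part in the chromosome 19 count was not tested. Chromosome 19 held 140 summits of the deletion list, 1 of the ectopic Sox2 list and 15 of the wildtype list. At the low end, chromosome X held 14 members, 0.307 per Mb (0.168 to 0.514), and chromosome 4 held 37, 0.595 per Mb. Chromosomes 12, 10 and 7 had 1.63, 1.60 and 1.54 per Mb.

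**Figure D5:**
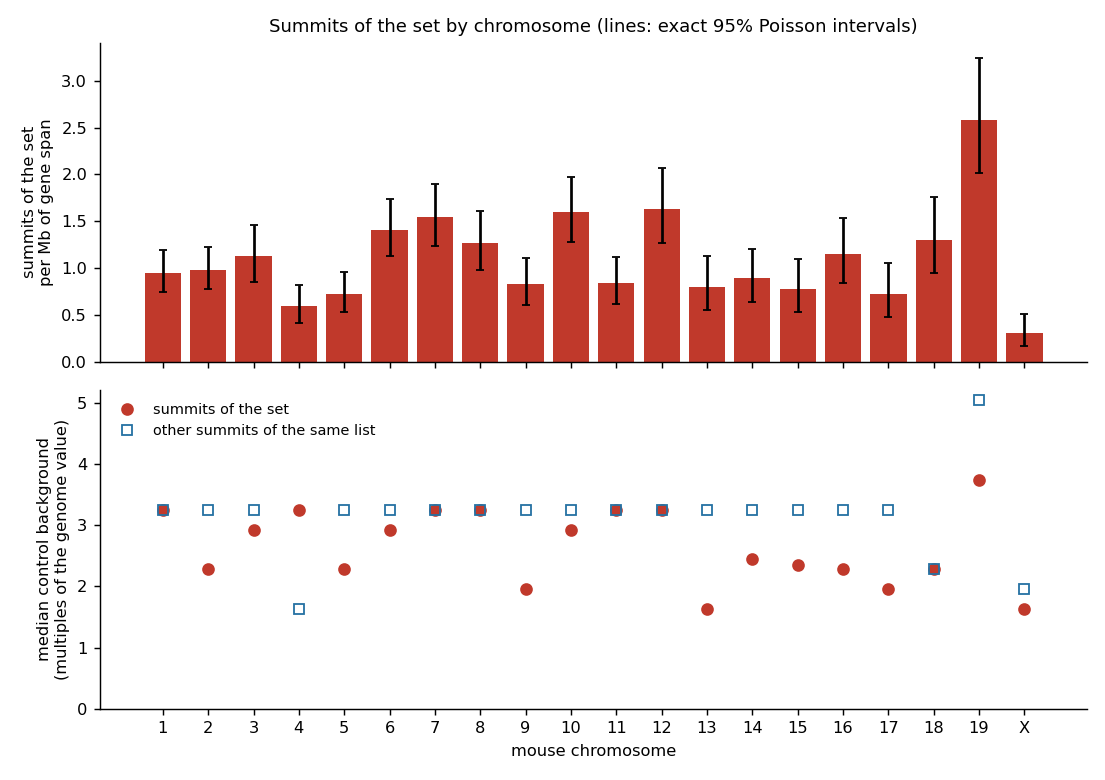
Top, members per Mb of gene span by mouse chromosome, with exact 95% Poisson intervals; bottom, median control background as multiples of the genome value, at members and at other summits of the same list. Chromosome 19 is highest in both, at 2.58 per Mb and 3.74 times, and X lowest in density at 0.307 per Mb.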

How the data were processed

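Sox2 ChIP peak lists of 3 libraries were used, 1 for each condition. Bowtie2 2.2.9, SAMtools 1.4, MACS2 2.1.1, HOMER 4.8.3 and build mm10 are named, per the submitters' processing notes; the sources used here do not state which control was set against each library, at which threshold peaks were called, or whether duplicates were removed. The deposited lists hold, per summit, the authors' score, fold (ratio over local background, pseudocount 1), −log10 p, −log10 q and positions, which count from 0 and are printed from 1. The authors' lists are per library and not pooled.

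Solving fold and −log10 p together gave ChIP fragments and control background at each summit, with whole fragments found at a scale of 0.423 in the deletion list, 0.638 with ectopic Sox2 and 0.741 in wildtype, within 0.005 (0.02 when fitting the scale). No unique value was found at 2, 1 and 3 summits of these lists. The solver was tested on simulated data. Depth is this recovered coverage, not a read total. Distances use RefSeq GRCm38.p6 spans (13 mitochondrial genes left out) and 17492 protein-coding genes with a start. Python 3.11.15, pandas 2.3.3, numpy 2.4.6, scipy 1.17.1 and matplotlib 3.10.9 were used. Intervals are exact 95% binomial or Poisson and cover counting error only; PCR copies are not independent molecules.

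The members, the gene lists and the tests were chosen with earlier results of these data known. Genes named are those of the 12 members with the largest −log10 q, of the 10 with the largest fold, those with 3 or more members, up to 5 genes per list by −log10 q, and the 3 members and non-members nearest each edge of the rule; others named were chosen after their values were seen. The counts of 1 of the 25 gene lists are not reported here. The members were also recomputed under stricter and looser overlaps, gene spans and −log10 q.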

Additional observations from a re-analysis of the deposited data

How the results depend on the processing

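No paired analysis was possible because each condition has 1 library, and for the same reason no library could be left out. Keeping only summits with −log10 q of at least 5 gave 658 members in 570 genes, and 38 listed genes held a member. Their median fold was 6.82 and their median −log10 q 7.63. Under the scaling to the ectopic Sox2 library, which follows control coverage, all 658 members (100%) would pass that list's lowest −log10 p. Scaled to the wildtype library instead, 99.6% of members would pass, and neither share tells how members would fare at a lower ChIP depth. The other 7 settings gave 1021 to 1111 members in 830 to 900 genes, lowest without chromosome 19. Without chromosome 19, 59 listed genes held a member, with 3 left in the Wnt list, 1 in the airway list, 1 in the alveolar type 1 list and 0 in the cornified envelope list, and Myof, Gnaq, Ahnak and Sgms1 drop out by construction. With the −log10 q limit, junction genes with a member numbered 3, Tgf-beta and Bmp 3, Nrf2 1 and Hippo 1, and Sox6 held 2 members, Myof 3 and Gnaq 3. The motif share at members and their place in exons or introns were not run, since genome sequence and exons were not used here. Under the scaling to the other libraries, every member that would miss another list's lowest −log10 p had a −log10 q under 5.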
